A study of Mus musculus with 12 samples.

Results

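The MHC class I presentation genes described here were 8 of the 22609 gene symbols counted in sorted trigeminal neurons of athymic nude mice. They were taken by symbol. No measured value entered the rule, but the members were chosen with earlier results of these data known. The members are the light chain B2m, the heavy chains H2-K1 and H2-D1, the peptide transporter subunits Tap1 and Tap2, the loading factor Tapbp, and the immunoproteasome subunits Psmb8 and Psmb9. All 8 had reads in every library and passed the filter on low counts.

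The 12 samples were triplicates of MN, MT, FN and FT (male or female, normal or tumor; 3 samples a group). All mice were Balb/c athymic nude adults of 6 to 8 weeks, which lack T lymphocytes; tumor mice carried in the tongue HSC3 cells, a human oral squamous cell carcinoma line, and normal mice had no tumor. The labels state that normal mice received no cells, while the study's methods describe an injection of OKF6-TERT2 normal oral keratinocytes. In every group the tongue was injected with the tracer WGA-488, the trigeminal ganglia (TGs) were taken on day 15, and WGA-positive cells were sorted; a normal sample pooled 4 TGs from 2 mice, and a tumor sample 4 ipsilateral TGs from 4 mice. The gate selects tracer, not cell type. The neuron genes Tubb3 (1943 to 6006 CPM, reads scaled to all reads on genes in the library) and Calca (3242 to 11272 CPM) were high in every library, and markers of other cells were present too, as described below.

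MHC class I molecules carry peptides of intracellular proteins to the cell surface, where CD8 T cells read them. The proteasome cuts the proteins, TAP1 and TAP2 pump the peptides into the endoplasmic reticulum, tapasin (Tapbp) holds the empty molecule near the pump, and the loaded heavy chain travels to the surface with beta-2-microglobulin. Neurons are known for low class I at rest, and interferons raise the whole pathway; endothelial cells and macrophages carry much more of it. H2-K1 and H2-D1 are the classical heavy chain genes of the reference genome, which is from C57BL/6; Balb/c mice carry other alleles (the H2d haplotype), so reads of their heavy chains were counted on the reference genes as far as they aligned.

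On mm9 (GENCODE M1), B2m lies at chr2:121973422-121978819 on the plus strand, and the other 7 members lie in the MHC on chromosome 17. From low to high coordinate these are Tapbp (chr17:34052844-34066235, plus strand), H2-K1 (chr17:34132962-34137278, minus strand), Psmb9 (chr17:34318933-34324709, minus strand), Tap1 (chr17:34324498-34334170, plus strand), Psmb8 (chr17:34334666-34338399, plus strand), Tap2 (chr17:34340472-34353266, plus strand) and H2-D1 (chr17:35399675-35404444, plus strand). Psmb9 and Tap1 overlap at their 5′ ends on opposite strands, Psmb8 and Tap2 overlap the antisense gene model Gm20496, Tapbp overlaps Zbtb22 and B2m lies within the antisense gene Patl2. Whether counting used strand is not given in the sources used here, and the values of these members may include reads of their partners or lack reads that overlapped both.

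The promoters of the heavy chains and of B2m are shown because these 3 genes moved together across the libraries (below). The 165 bases before the gene start are given from RefSeq (GRCm38.p6), 5′ to 3′ on the gene's strand. Capitals mark matches, on either strand, to AANNGAAA (the core of interferon regulatory factor sites, added after these sequences were seen), TGACG (X2 box) and CCAAT (Y box).
H2-K1 (chr17:34000348-34000512, minus strand): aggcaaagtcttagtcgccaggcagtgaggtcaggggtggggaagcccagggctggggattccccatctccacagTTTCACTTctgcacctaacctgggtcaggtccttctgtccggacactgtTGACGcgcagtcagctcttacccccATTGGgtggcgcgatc
H2-D1 (chr17:35262929-35263093, plus strand): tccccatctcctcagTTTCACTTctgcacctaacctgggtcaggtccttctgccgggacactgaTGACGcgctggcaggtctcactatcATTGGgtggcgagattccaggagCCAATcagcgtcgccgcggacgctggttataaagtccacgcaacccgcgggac
B2m (chr2:122147522-122147686, plus strand): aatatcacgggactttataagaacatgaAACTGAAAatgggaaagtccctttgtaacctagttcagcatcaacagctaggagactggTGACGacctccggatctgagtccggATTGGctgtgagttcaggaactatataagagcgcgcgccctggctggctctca

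In each of the 3 promoters the matches stood in the same order, interferon core first, X2 box next and Y box closest to the gene. The interferon core began 90, 150 and 137 bases before the start of H2-K1, H2-D1 and B2m. Promoter entries were found for 7 of the 8 members (not for Tap2). In the 250 bases before the start, AANNGAAA matched 3 of 7 members and 21.6% of 27025 promoters, TGACG 5 of 7 and 17.9%, and CCAAT 6 of 7 and 34.5%. The full interferon element, GAAA, any 2 bases and GAAA, matched B2m alone among the members, at the same place as the core, and 3.04% of all promoters. The gamma-interferon element TTCNNNGAA matched Psmb8 alone (7.18% of all promoters), and the kappa-B form GGGNNNTCC matched H2-K1 and H2-D1 (15.0%). These are matches of letters and say nothing of binding.

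The next sequence is shown because it limits what a 50-base read can say about the heavy chains. It is the longest stretch of coding exon that H2-K1 (chr17:34134288-34134378, minus strand) and H2-D1 (chr17:35402856-35402946, plus strand) share base for base on mm9, 91 bases long.
H2-K1 and H2-D1: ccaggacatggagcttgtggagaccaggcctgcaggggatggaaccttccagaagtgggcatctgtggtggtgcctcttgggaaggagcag

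When every 50-base window of the members' exons was placed on mm9 chromosomes 2 and 17, 83.0% of the H2-K1 windows and 86.4% of the H2-D1 windows had a single best place. Allowing 2 mismatches, 48.3% and 51.0% had a single place, and the gene hit most often besides was the other heavy chain. For the other 6 members at least 96.6% of windows had a single place at 2 mismatches. The split of reads between H2-K1 and H2-D1, and between them and other class I genes, is therefore uncertain. The windows are of the reference genome and do not show how reads of the H2d alleles were placed or lost. That limits the joint level of the heavy chains as well.

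Levels per length were compared as RPKM, which is CPM divided by the exon length in kilobases. B2m ranked 1 of the 8 members in every library, at 259 to 1173 RPKM. H2-D1 ranked 2 or 3 (82.0 to 379.7 RPKM), Tapbp 3 or 4 (32.3 to 86.3 RPKM) and H2-K1 3 to 5 (13.4 to 106 RPKM). Psmb8 ranked 2 to 6 (11.1 to 109 RPKM), highest in FT2, and Tap2 5 to 7 (4.31 to 20.1 RPKM). Psmb9 (2.23 to 7.16 RPKM) ranked 6 to 8 and Tap1 (1.86 to 5.19 RPKM) 7 or 8. The neighbors Tapbp and H2-K1, Psmb8 and Tap2, and Psmb9 and Tap1 overlapped in their ranges. By mean RPKM, B2m exceeded 99.4% of tested genes and Tap1 38.4%. Exon length was the union of all annotated models, which lowers the RPKM of members with long non-coding models.

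B2m, the light chain, was at 369, 315 and 413 CPM in MN1, MN2 and MN3. In MT it was at 339, 298 and 686 CPM, in FN at 523, 832 and 379.8 CPM, and in FT at 407.5, 223 and 1009 CPM. FT thus held both the lowest and the highest library, and the group means were 366 ± 48.9 (MN), 441 ± 213 (MT), 579 ± 231 (FN) and 546 ± 411 CPM (FT; SD, n = 3).

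H2-D1, a heavy chain, was at 381, 403 and 429.6 CPM in MN and at 449.9, 411 and 748 CPM in MT. In FN it was at 566, 889 and 483 CPM, and in FT at 494, 212 and 983 CPM. Every FN library lay above every MN library, and FT again spanned all other groups. H2-K1, the other heavy chain, was at 108, 102 and 122 CPM in MN, 110.2, 114 and 243 CPM in MT, 162, 218 and 143 CPM in FN, and 163, 35.1 and 277 CPM in FT. Its libraries stood in the same positions as those of H2-D1: all FN libraries were above MN, MT3 was highest among the males, FT2 lowest and FT3 highest of all.

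Psmb8, which replaces the proteasome subunit Psmb5 in the immunoproteasome, was at 36.1, 33.1 and 33.7 CPM in MN and 33.5, 30.4 and 58.0 CPM in MT. In FN it was at 56.3, 86.1 and 50.8 CPM, and in FT at 53.1, 298 and 112 CPM. FT2, which was lowest for the heavy chains, was highest for Psmb8, on 1367 reads. Psmb9, which replaces Psmb6, was at 8.15, 11.3 and 9.52 CPM in MN, 9.56, 11.9 and 16.9 CPM in MT, 15.0, 18.3 and 16.6 CPM in FN, and 15.9, 16.5 and 26.2 CPM in FT. Its 3 FN libraries were above all MN libraries and it rested on 58 to 188 reads per library.

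Tap1 was at 18.1, 24.99 and 24.6 CPM in MN, 17.6, 18.1 and 28.4 CPM in MT, 22.4, 10.2 and 26.7 CPM in FN, and 19.2, 12.8 and 11.2 CPM in FT. The groups overlapped, and the lowest values were those of FN2, FT3 and FT2. Tap2 was at 52.0, 46.0 and 53.7 CPM in MN, 49.1, 39.9 and 64.0 CPM in MT, 74.3, 16.3 and 75.9 CPM in FN, and 66.7, 29.4 and 60.8 CPM in FT. FN1 and FN3 were the highest libraries for Tap2, and FN2 the lowest. Tapbp was at 223, 233 and 247 CPM in MN, 238, 241 and 285 CPM in MT, 269.6, 107 and 256 CPM in FN, and 229.9, 109.5 and 163 CPM in FT, so that FN2 and FT2 were lowest for it too.

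**Figure D1:**
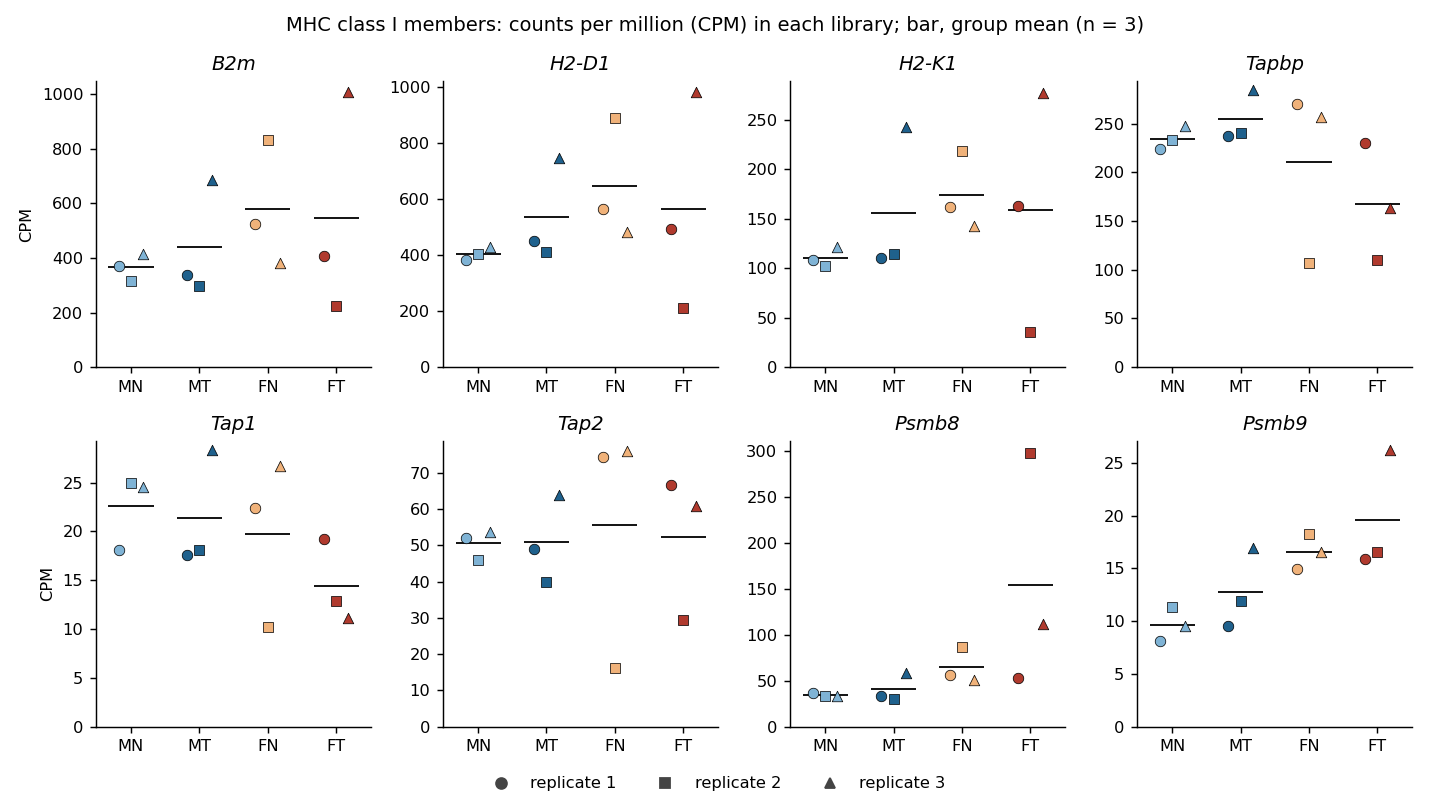
CPM (vertical axis, from 0) of the 8 members in each of the 12 libraries, by group (horizontal axis), with 1 point per library, its shape giving the replicate and the bar the group mean. MT3 is the highest male library in all 8 panels, FT3 is highest of all for B2m, H2-D1, H2-K1 and Psmb9, and FN2 and FT2 are the lowest libraries for Tap2 and Tapbp.

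The libraries FN2, FT2 and FT3 stood apart from the rest of the series by measures that do not use the members. Their multi-mapped share was 56.0%, 68.4% and 52.6% of reads, against 43.0 to 45.5% in the other 9, and FT2 had the fewest reads on genes (4592891, against 7112207 to 8922011). The counts and medians of the members below are also given from a joint fit without FN2 and FT2. FT3 stays in that fit although it stood apart too, so FT rests there on FT1 and FT3. In FN2 and FT3 the difference from their group also moved with exon length. In FN2, the median difference in log2(CPM + 1) from FN1 and FN3 was 0.68 over the shortest of 4 equal classes of exon length (up to 2383 bases) and -0.70, -1.01 and -0.86 in the next 3 classes. In FT3 against FT1 these medians were 0.57, -0.24, -0.64 and -0.58.

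The members followed these classes in part. B2m, with 860 bases of exon, differed by 0.90 in FN2 and 1.31 in FT3. Tap1, with 5476 bases, differed by -1.19 and -0.73, Tap2, with 3781 bases, by -2.14 and -0.13, and Tapbp, with 3298 bases, by -1.29 and -0.49. H2-D1, H2-K1, Psmb8 and Psmb9 (2588 to 3659 bases) lay, like Tapbp, in the next class. They were higher in both libraries, by 0.20 to 0.77 in FN2 and 0.69 to 1.06 in FT3. Except for Psmb9 in FN2 (0.20), this was above the upper quartile of that class (0.25 in FN2 and 0.40 in FT3). The quartiles of the shortest class were -0.09 and 1.20 in FN2, and 0.16 and 0.83 in FT3. These lengths are unions of all annotated models, so a member with shorter transcripts may belong in a shorter class. The part of length in the members' differences was not tested. FT2 showed another pattern, with H2-K1 lower by 2.19 and Psmb8 higher by 2.46 than in FT1, while the medians of the length classes lay between -0.92 and -0.22.

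**Figure D2:**
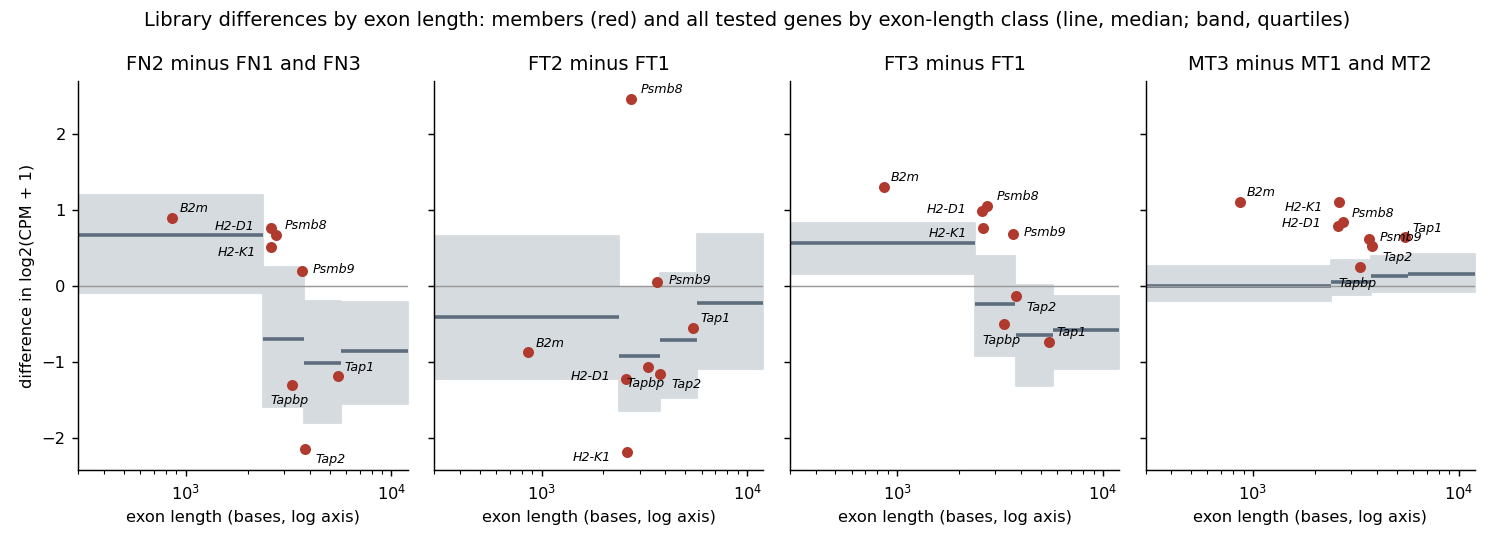
Difference in log2(CPM + 1) (vertical axis) between a library and others of its group against exon length in bases (log axis, without the extremes of length). Red points are the 8 members; grey lines and bands give the median and quartiles of all tested genes in 4 equal classes of exon length. FN2 and FT3 lie above their group for short genes and below it for long ones, and in MT3 all 8 members lie above 0.

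The comparison of FN with MN asks how the neurons of tumor-free females and males differ. In the edgeR quasi-likelihood fit of all 12 libraries, 6 of 8 members were higher in FN and 2 lower, and none passed an adjusted p of 0.05, as was true of all 13360 tested genes outside X and Y (0.0%). DESeq2 called 13 genes and limma-voom with quality weights 800, with no member among them. The largest differences were those of the immunoproteasome and of the heavy and light chains. The log2 fold change was 1.06 ± 0.59 (SE) for Psmb8, 0.90 ± 0.37 for Psmb9, 0.84 ± 0.48 for H2-D1, 0.83 ± 0.52 for B2m and 0.80 ± 0.54 for H2-K1. Tap2 was at 0.15 ± 0.43, Tapbp at -0.11 ± 0.33 and Tap1 at -0.15 ± 0.36. The median of the 8 was 0.82, beside 0.07 over all tested genes. Only Psmb9 had an unadjusted p under 0.05 (unadjusted p = 0.0294, adjusted p = 0.809 in edgeR), against 5.57% of tested genes. The study set criteria for a DEG (unadjusted p under 0.05, fold over 1.5 and RPKM over 5) and took its p-values from DESeq. With edgeR p-values and RPKM on union exon length, no member met them here, against 3.69% of tested genes. Psmb9 missed only the RPKM minimum. Its mean in FN was 4.54 RPKM, from the exon length of 1 of its 2 gene entries.

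H2-K1, H2-D1, Psmb8 and Psmb9 (4 of 8 members) had every FN library above every MN library, a pattern that 9.66% of tested genes showed. Without FN2 the count was 6 members, Tap2 and Tapbp being added, and the share of tested genes was 23.2%. With FN2 and FT2 left out of the joint fit, each of the 8 members lay above 0 in FN versus MN, their median being 0.36 beside -0.00 over all genes; Tap1 and Tapbp were then at 0.06 and 0.11, Tap2 at 0.51, and Psmb8, H2-K1, H2-D1 and B2m at 0.59, 0.40, 0.32 and 0.25. No adjusted p was under 0.05 in that fit.

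A fit of FN1 and FN3 with the 3 MN libraries alone, added after the data were seen, had a smaller spread. It called 3 members, all higher in FN: Psmb8 (log2 fold change 0.59 ± 0.13, adjusted p = 0.0162 in edgeR), Tap2 (0.52 ± 0.12, adjusted p = 0.0199) and H2-K1 (0.41 ± 0.11, adjusted p = 0.0455). H2-D1 (0.32 ± 0.10, adjusted p = 0.0683) and Psmb9 (0.65 ± 0.22, adjusted p = 0.105) were close behind, and B2m, Tapbp and Tap1 had adjusted p from 0.305 to 0.887. Of 13156 tested genes, 5.53% were called, and 3.98% were called and higher in FN. The other 2 groups did not enter this estimate of the spread. With FN2 in, the fit of the 2 groups alone called no member.

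Lists of genes used as markers of other cells moved with this comparison. The study itself reported staining of Csf1R and C1qa in WGA-positive neurons, in more of them in females than in males. The summed CPM of 16 macrophage genes was 28.5 to 42.5 in MN and 196 to 454 in FN; its first gene, Csf1r, was at 2.30 to 6.61 CPM in MN and 1.96 to 69.1 in FN, and C1qa at 1.68 to 3.80 and 19.6 to 41.2 CPM. The sum of 12 endothelial genes was 609 to 1453 in MN and 1664 to 1908 in FN, that of 8 satellite glia genes 4701 to 5500.3 and 8553 to 17350, that of 8 fibroblast genes 153 to 209.9 and 379 to 1208, and that of 8 class II genes 28.5 to 40.6 and 50.0 to 100.4 CPM. None of these 5 sums overlapped between FN and MN. Single genes of the lists did: the endothelial genes Pecam1 and Cdh5 were at 43.9 to 134 and 9.42 to 18.02 CPM in MN and at 15.0 to 163 and 4.04 to 25.8 CPM in FN. The 16 sensory neuron genes summed to 25951 to 27555 CPM in MN and 22999 to 31857 in FN. The part of these cells in the members' differences was not tested, and in bulk samples more cells of a type and more RNA per cell cannot be told apart.

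**Figure D3:**
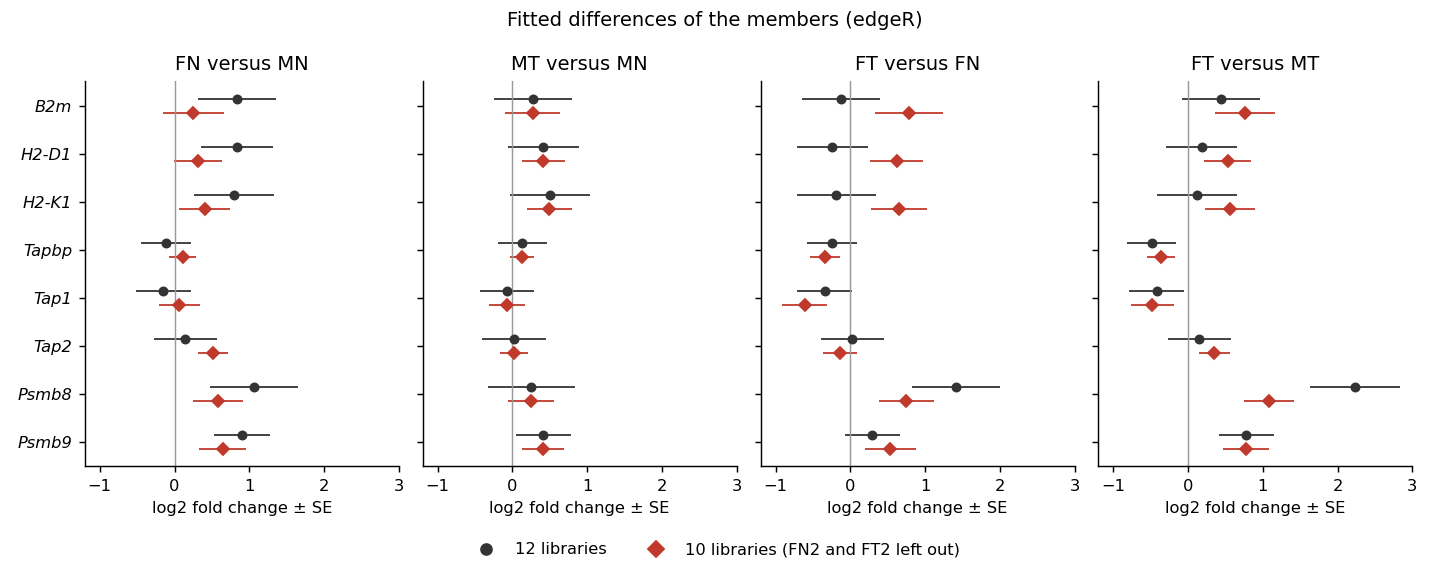
Log2 fold changes with standard errors (horizontal axis) of the 8 members in 4 comparisons from the joint edgeR fit of 12 libraries (black) and of the 10 libraries without FN2 and FT2 (red). Psmb8 stands farthest from 0 in FT versus MT (2.23 and 1.08), and B2m, H2-D1 and H2-K1 change sign between the fits in FT versus FN.

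The comparison of MT with MN asks what changed in males with the tumor. In the joint edgeR fit 7 of 8 members were higher in MT, with a median log2 fold change of 0.26 beside 0.01 over all 13835 tested genes, and none had an adjusted p under 0.05 (0.0% of tested genes) or an unadjusted one (0.426%). DESeq2 called 2 genes and limma-voom 47, none of them a member. The values ran from -0.07 ± 0.36 for Tap1 to 0.50 ± 0.53 for H2-K1, with H2-D1 at 0.42 ± 0.47, Psmb9 at 0.41 ± 0.37, B2m at 0.28 ± 0.52, Psmb8 at 0.25 ± 0.58, Tapbp at 0.13 ± 0.33 and Tap2 at 0.03 ± 0.43. No member met the DEG criteria, which 0.152% of genes met.

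This difference rested on MT3. MT3 was the highest of the 6 male libraries for all 8 members, as it was for 27.9% of tested genes. Against MT1 and MT2 it was higher by 1.11 for B2m and H2-K1, 0.84 for Psmb8, 0.80 for H2-D1, 0.64 for Tap1, 0.62 for Psmb9, 0.52 for Tap2 and 0.25 for Tapbp in log2(CPM + 1), while the medians over the length classes of all genes were -0.00 to 0.15. Without MT3, in a fit of the 2 groups alone, 4 members were higher and 4 lower in MT, with a median of 0.00. B2m was then at -0.16, Tap2 at -0.14 and Psmb8 at -0.06, and no member had an adjusted p under 0.05.

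MT3 also had the highest sum of the male libraries for several lists of other cells. Its macrophage sum was 286 CPM, against 23.02 to 42.5 in the other 5 male libraries, and its class II sum 208 CPM against 28.5 to 40.6. Cd74, the invariant chain of class II, was at 88.5 CPM, and H2-Aa at 31.9 CPM. Its endothelial sum (1865 CPM) was also the highest of the males (609 to 1453 CPM in the others). The same held for fibroblasts (430 CPM against 153 to 260) and for pericytes and smooth muscle (250 CPM against 101 to 167). It also held for myelinating Schwann cells (2385 CPM against 1544 to 2079). The satellite glia, neutrophil and dendritic cell sums were not highest in MT3, and its sensory neuron sum was the lowest (25488 CPM against 25951 to 28253). Csf1r was at 28.0 CPM in MT3. The part of these cells in the members' levels was not tested. Lymphocyte markers were close to absent everywhere: 12 genes summed to 0.126 to 6.75 CPM, and 4 of them, the T cell genes Cd3e and Cd3g among them, were at 0 reads in all 12 libraries (3 reads would be 0.336 to 0.653 CPM).

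**Figure D4:**
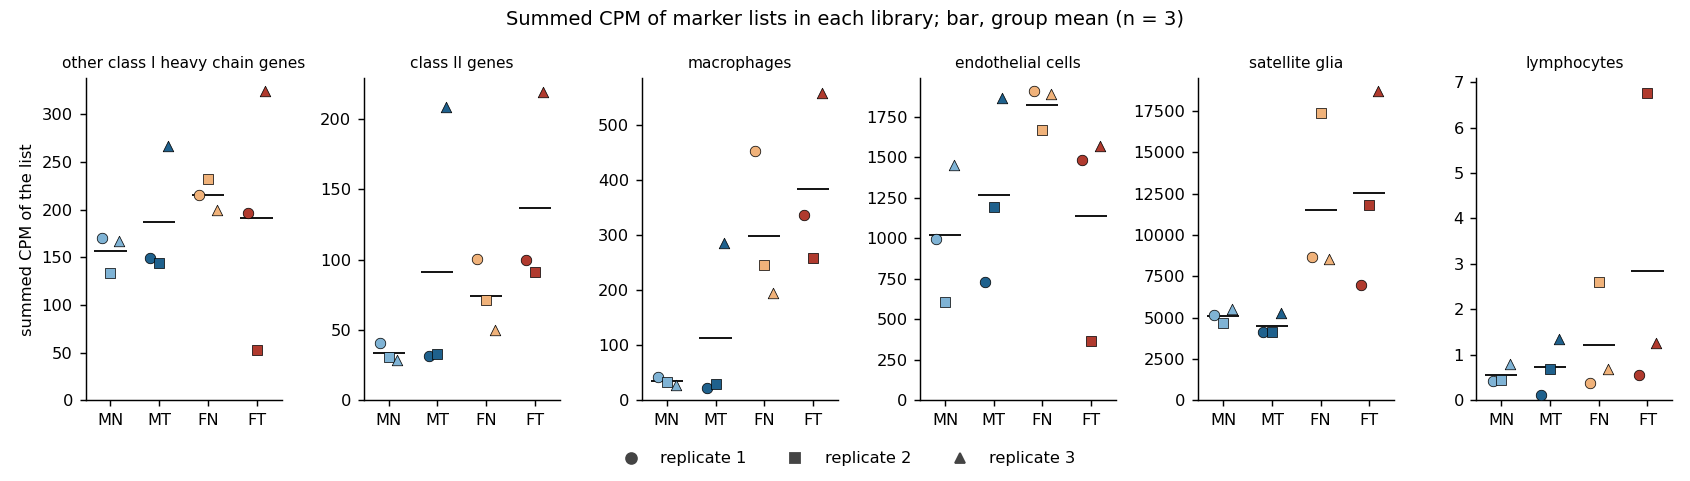
Summed CPM (vertical axis, from 0) of 6 gene lists in each library, by group, with 1 point per library and the group mean as a bar. The MT3 triangle stands at 208 CPM for class II genes and 286 CPM for macrophages, far above the other male libraries, and every FN library lies above every MN library for macrophages, endothelial cells, satellite glia and class II genes.

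In females, FT was compared with FN. The joint fit of 12 libraries gave 3 members higher and 5 lower in FT, with a median log2 fold change of -0.15 beside -0.06 over all genes, and none with an adjusted p under 0.05 (0.0% of tested genes; DESeq2 and limma-voom called 0 genes too). Psmb8 was at 1.42 ± 0.59 (unadjusted p = 0.0299, adjusted p = 0.994 in edgeR) and was the only member to meet the DEG criteria, which 2.18% of tested genes met; 3.82% had an unadjusted p under 0.05. The others ran from -0.34 ± 0.37 for Tap1 to 0.29 ± 0.37 for Psmb9, with Tapbp at -0.24 ± 0.33, H2-D1 at -0.24 ± 0.47, H2-K1 at -0.19 ± 0.53, B2m at -0.12 ± 0.52 and Tap2 at 0.03 ± 0.43.

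The Psmb8 difference rested on FT2. Without FT2 its log2 fold change was 0.27, and it no longer met the criteria. With FN2 and FT2 left out it was 0.75 ± 0.37, and the directions of B2m (0.79 ± 0.45), H2-K1 (0.66 ± 0.37) and H2-D1 (0.62 ± 0.35) turned to higher in FT. With FT3 left out as well, FT was FT1 alone. Psmb8 was then at -0.01, B2m at -0.14, H2-D1 at -0.08 and H2-K1 at 0.11. FT3 was the highest of the 12 libraries for B2m, H2-D1, H2-K1 and Psmb9, 4 of 8 members, as it was for 12.5% of tested genes. It also had the highest macrophage sum (559 CPM) and class II sum (219 CPM) of the 12. Its satellite glia (18729 CPM) and myelinating Schwann cell sums (3635 CPM) were the highest as well, while the other cell type lists were highest elsewhere. The direction of the heavy and light chains in tumor-bearing females thus changed with the libraries used.

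Between the sexes in tumor-bearing mice, FT and MT, 6 members were higher and 2 lower in FT, with a median of 0.17 beside 0.07 over all genes. Without FN2 and FT2 the counts were the same and the median was 0.54 beside -0.01, and without FT3 alone 3 were higher and 5 lower, with a median of -0.30. Without MT2 alone 4 were higher and 4 lower (median 0.01), and without MT3 alone the median was 0.50. Psmb8 was again the member that stood out, at 2.23 ± 0.60 (unadjusted p = 0.00234, adjusted p = 0.321 in edgeR), and Psmb9 was at 0.78 ± 0.37 (adjusted p = 0.417). B2m was at 0.44 ± 0.52, H2-D1 at 0.18 ± 0.47, Tap2 at 0.15 ± 0.43, H2-K1 at 0.12 ± 0.53, Tap1 at -0.42 ± 0.37 and Tapbp at -0.49 ± 0.33. No gene had an adjusted p under 0.05 in edgeR (0.0%) or limma-voom, DESeq2 called 245 genes, and an unadjusted p under 0.05 was reached by 1 member, Psmb8, and 12.1% of tested genes. Psmb8 met the DEG criteria, as did 8.16% of tested genes. No member had every FT library above every MT library (8.03% of genes); MT3 lay above FT1 for Psmb8 and Psmb9. Psmb8 was at 1.08 ± 0.33 without FN2 and FT2 (adjusted p = 0.190 in edgeR). DESeq2 on all 12 libraries called it (adjusted p = 0.0187), among 245 of 17316 genes. Without FT1, edgeR called it too (2.67, adjusted p = 0.0363), among 755 of 13606 genes. FT then held only FT2 and FT3, which both stood apart from the rest of the series. With FN2, FT2 and FT3 all left out, FT was FT1 alone and Psmb8 was at 0.33. In that fit 4 members were higher and 4 lower in FT, with a median of -0.07 beside -0.01 over all genes. Without FN2 and FT2, Psmb9 was at 0.77 ± 0.31, B2m at 0.76 ± 0.41, H2-K1 at 0.56 ± 0.34, H2-D1 at 0.53 ± 0.32, Tap2 at 0.35 ± 0.21, Tapbp at -0.36 ± 0.19 and Tap1 at -0.48 ± 0.28.

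Whether the tumor's effect differed by sex was tested by the interaction, (FT minus FN) minus (MT minus MN). No member and no gene passed an adjusted p of 0.05 in edgeR (0.0%), DESeq2 or limma-voom, no member had an unadjusted p under 0.05 (1.47% of genes) and none met the DEG criteria (0.614%). Psmb8 had the largest value, 1.17 ± 0.82. H2-K1 (-0.68 ± 0.75), H2-D1 (-0.66 ± 0.67), B2m (-0.40 ± 0.73), Tapbp (-0.38 ± 0.47), Tap1 (-0.27 ± 0.52), Psmb9 (-0.12 ± 0.52) and Tap2 (0.00 ± 0.60) were all smaller than their standard errors. In all, 2 members lay above 0 and 6 below. Without FN2 and FT2 it was 5 above and 3 below, B2m moving to 0.51 ± 0.58, H2-D1 to 0.21 ± 0.45 and H2-K1 to 0.16 ± 0.48, and still none passed.

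The immunoproteasome subunits were set against the constitutive subunits that they replace, as a ratio of RPKM within a library. Psmb8 over Psmb5 was 0.172 to 0.175 in MN. It was 0.140 and 0.144 in MT1 and MT2 and 0.286 in MT3. In FN it was 0.251 in FN1 and in FN3 and 0.161 in FN2, and in FT it was 0.216, 1.71 and 0.286. The ratio in FT2 was thus the only one in which the inducible subunit exceeded its counterpart. Psmb10, the other inducible subunit, over Psmb7 was 0.267 to 0.335 in the males. It was 0.307, 0.538 and 0.323 in FN1, FN2 and FN3, and 0.306, 3.69 and 0.416 in FT1, FT2 and FT3. This ratio also depends on Psmb7, whose mean was 186 ± 56.7 RPKM in FN and 146 ± 94.6 RPKM in FT (SD, n = 3). Psmb9 over Psmb6 stayed between 0.00970 and 0.0300 and was not raised in FT2 (0.0142). FT2 held high Psmb8 and Psmb10 without high Psmb9, Tap1, Tap2 or H2-K1.

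The ratio of H2-D1 to H2-K1 in RPKM was 3.05 to 4.11 in 11 libraries and 6.10 in FT2, in which H2-K1 had 161 reads. B2m over the sum of both heavy chains ran from 1.71 to 2.71, a narrow span for genes whose levels differed several-fold between libraries.

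**Figure D5:**
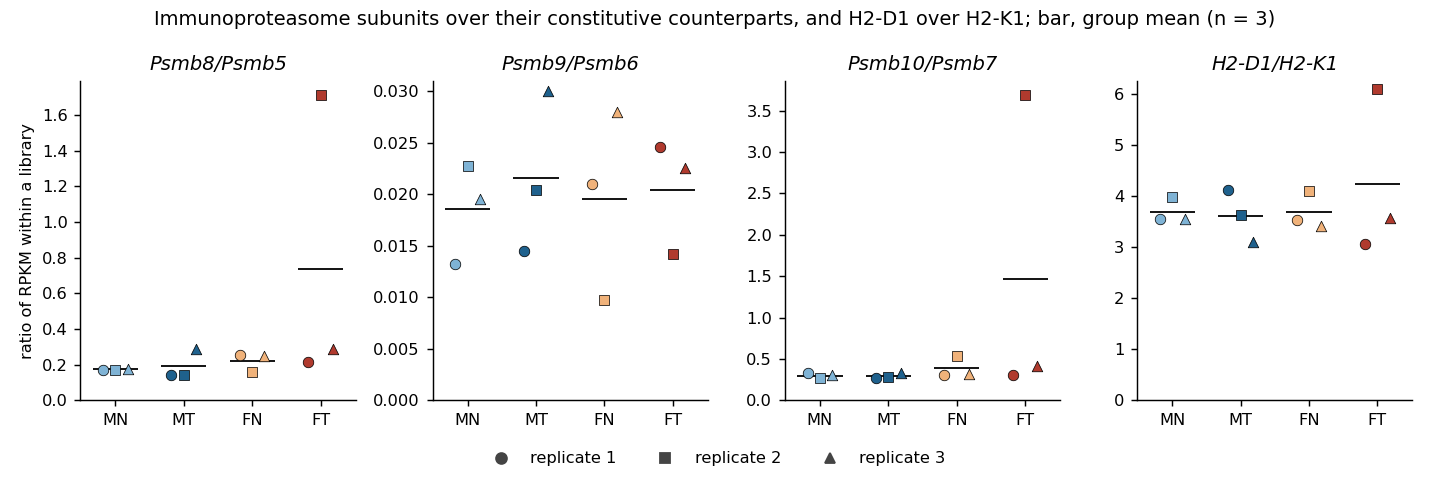
Ratio of RPKM between 2 genes of the same library (vertical axis, from 0), by group, with 1 point per library and the group mean as a bar. FT2 (the FT square) stands apart for Psmb8 over Psmb5 (1.71), Psmb10 over Psmb7 (3.69) and H2-D1 over H2-K1 (6.10), and within the MN group Psmb8 over Psmb5 is nearly constant.

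The genes whose profile was most like that of each member were found by the mean absolute difference between centred log2 CPM over the 12 libraries. The nearest gene to B2m was H2-D1 (0.157), followed by Fam96a and Sdf2l1. The nearest to H2-K1 was H2-Gs10 (0.152), another class I heavy chain gene, followed by Abhd14b and Thap11. For H2-D1 they were Bves (0.117), Asl and Trp53i13. For Psmb8 they were Vamp5 (0.165), Ifitm3 (0.178), a membrane protein that interferon induces and that blocks virus entry, and Tmem88. For Psmb9 they were Pacsin3 (0.121), Alad and Eno3. Tap1 was closest to Ppp6r3 (0.105), Spata13 and Zfp192, Tap2 to Abhd4 (0.154), Pttg1ip and Fkbp10, and Tapbp to Trim46 (0.0956), Arfgap1 and Anapc5. The libraries FN2, FT2 and FT3 carry much of each profile, and these are descriptions over 12 libraries that share those differences in depth and exon length.

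Of the other class I heavy chain genes, 16 were tested. In FN versus MN 15 were higher and 1 lower, with a median log2 fold change of 0.36 beside 0.07 over all genes, and none passed an adjusted p of 0.05. The largest were Hfe (1.12 ± 0.55), which tunes iron uptake, and H2-M3 (1.11 ± 0.59), which presents formylated peptides. H2-T23, the mouse Qa-1 gene read by natural killer cells, was at 0.45 ± 0.61; it was 62.7 CPM in MT3 against 16.3 to 29.0 CPM in the other male libraries, and 3.92 CPM in FT2. In MT versus MN 15 were higher and 1 lower as well (median 0.33 beside 0.01), and in FT versus MT 10 were higher and 6 lower (median 0.10 beside 0.07); none passed in either. In FT versus FN 7 were higher and 9 lower (median -0.06 beside -0.06). The study listed H2-Q6 and Gm8909 among its DEGs raised in FT. Here they were at 0.49 ± 0.67 and 0.34 ± 0.75. In the fit of FT and FN alone without FN2 and FT2 they were at 1.27 ± 0.46 and 1.47 ± 0.50 (adjusted p = 0.743 for each in edgeR). In the joint fit without FN2 and FT2 the list had 13 higher and 3 lower in FT versus FN (median 0.48 beside -0.06). The same counts held in FT versus MT (median 0.53 beside -0.01). In FN versus MN it was 12 and 4 (median 0.29 beside -0.00). None passed in these fits either. Their summed CPM was 133 to 170 in MN, 144, 149 and 267 in MT, 199 to 232 in FN, and 53.1, 196 and 324 in FT, so FT2 was lowest and FT3 highest here too.

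Of the other loading and proteasome genes, which include the chaperones Calr and Canx and the proteasome activator subunits, 19 were tested. In FN versus MN 9 were higher and 10 lower, with a median of -0.00 beside 0.07, and none passed in any comparison of the 12 libraries. Without FN2, in the fit of the 2 groups alone, Psme1, an interferon-inducible activator subunit, was higher in FN (0.57 ± 0.15, adjusted p = 0.0409 in edgeR). It was the only one of 19 to pass in that fit, which was added after the data were seen and called 5.53% of all tested genes. Psmb10 was at 50.5 to 64.1 CPM in MN, at 171 CPM in FN2, and at 65.4, 196 and 119.6 CPM in FT.

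Of 22 regulators tested, none passed in any comparison of the 12 libraries. Nlrc5, the transactivator of class I genes, was low everywhere, at 0.653 to 5.06 CPM, with MT3 the highest library and FT2 the lowest, on 3 reads. Irf1, a factor that induces Tap1 and Psmb9, was at 44.6 to 68.4 CPM in MN and 24.8 CPM in FT2. Without FN2, in the fit of FN and MN alone, Ifnar1, a receptor subunit for type I interferon, was higher in FN (0.47 ± 0.11, adjusted p = 0.0244 in edgeR) and Stat2 lower (-0.42 ± 0.11, adjusted p = 0.0452). The other 20 did not pass in that fit, which was added after the data were seen and called 5.53% of all tested genes.

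Of the interferon-induced genes, 26 were tested. In FN versus MN 17 were higher and 9 lower (median 0.43 beside 0.07), and in MT versus MN 21 were higher and 5 lower (median 0.42 beside 0.01). In FT versus FN 7 were higher and 19 lower (median -0.15 beside -0.06), and in FT versus MT 9 were higher and 17 lower (median -0.29 beside 0.07). None passed an adjusted p of 0.05 in any of these. In the joint fit without FN2 and FT2, 27 were tested and 25 were higher in FN versus MN (median 0.26 beside -0.00), 16 in FT versus FN (median 0.13 beside -0.06) and 13 in FT versus MT (median -0.03 beside -0.01), none passing. Their summed CPM in MT was 787, 682 and 1093 in MT1, MT2 and MT3, against 651 to 801 in MN. Without FN2, in the fit of FN and MN alone (added after the data were seen), 24 of 26 were higher in FN. In that fit 3 passed, beside 5.53% of all tested genes. Rsad2, the antiviral viperin (1.14 ± 0.26, adjusted p = 0.0211 in edgeR), and Ifitm3 (0.59 ± 0.16, adjusted p = 0.0459) were higher, and Lgals3bp was lower (-0.48 ± 0.10, adjusted p = 0.0163). The class II genes were higher in all 6 tested members in FN versus MN (median 1.30) and in MT versus MN (median 1.43), none passing an adjusted p of 0.05. In MT the list was high in MT3, where it summed to 208 CPM, while MT1 (31.6 CPM) and MT2 (32.8 CPM) lay within the range of MN.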

How the data were processed

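The deposited files held whole counts of reads per gene symbol for each of 12 libraries of sorted trigeminal cells, made by the authors without normalization: SMART-seq2 libraries, 50-base single reads, TopHat2 on mm9 and HTSeq (CASAVA 1.8.2 and SAMtools are also in the submitters' processing notes; other versions, annotation and strand setting are not given in the sources used here). Rows of unassigned reads, 76.3 to 88.8% of reads, entered neither library sizes nor tests.

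Reads on genes were 4592891 to 8922011 per library. CPM were taken over gene rows and RPKM with GENCODE M1 exon lengths (95.7% of symbols); Psmb9 has 2 gene entries there and 1 was used. Counts were fitted in edgeR 4.0.16 (R 4.3.3; TMM, filterByExpr with a minimum count of 10, quasi-likelihood test, 1 mean per group, Benjamini-Hochberg over all genes tested; genes on X and Y left out between sexes). DEG criteria were an unadjusted p under 0.05, fold over 1.5 and RPKM over 5 in one group. Groups came from the labels; each sample pooled animals, so p-values measure the spread between pools. DESeq2 1.42.0, limma-voom 3.58.1, other scalings, no filter, left-out libraries and fits of 2 groups were alternatives. Exon windows of 50 bases were placed with bwa 0.7.19 and at most 2 mismatches. Neither the lists' genes H2-Q4, H2-L, Gm10499, Ifi27 and Ly6g nor reads were analysed here.

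The 8 members were always named; other genes could be named from the class I and interferon lists, from the first 2 of each cell type list, and as the 3 nearest profiles of a member (prior count 2). Irf1, Nlrc5 and Cd3g fall under these lists. The members and lists were chosen with earlier results of these data known. The replicate numbers were not treated as pairs in the main fit. Of 18 pairs with the same number, 5 correlated above 0.1 (r from -0.35 to 0.57). Pairs with other numbers reached -0.65 (FN2 and FT1) and 0.61 (FN3 and FT1), so this check cannot tell whether the numbers mark samples handled together. Tested on simulated data for FN versus MN (13194 genes), edgeR recovered 0 of 49 genes changed 1.5-fold, 0 of 49 changed 2-fold, 25 of 47 changed 4-fold and 48 of 48 changed 8-fold; with the dispersion divided by 10 (13179 genes) it recovered 20 of 49, 38 of 49, 47 of 47 and 48 of 48.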

Additional observations from a re-analysis of the deposited data

How the results depend on the processing

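With 3 pooled samples a group and a wide spread, differences of about 2-fold in a member could be missed, as data simulated with the full spread showed for FN versus MN. No member was called in the joint edgeR fit or its rescaled versions, and the calls of Psmb8, Tap2 and H2-K1 came from other fits or fewer libraries. The replicate number as a block left 0 members called in each comparison. With it, 1 member met the DEG criteria in FT versus FN and 1 in FT versus MT. In those comparisons 201 of 13835 and 1151 of 13360 tested genes met them. The block moved Tap2 to -0.0054 in FN versus MN and -0.013 in MT versus MN. Without TMM the median of all genes in FT versus MT moved from 0.07 to -0.07. CPM over TMM effective sizes stayed within 1 SD in 31 of 32 group means. With the heavy chain genes summed, 0 members were called and the number meeting the DEG criteria was as before in each comparison. The sum was at 0.79 ± 0.49 in FN versus MN, beside 0.84 for H2-D1 and 0.80 for H2-K1 apart. The median of the 6 members left outside the sum was 0.49. With all 8 apart it was 0.82, so the medians cover different genes. Where a direction or count changed, the cause was not tested beyond the libraries left out.

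Members called at an adjusted p under 0.05 numbered 3 in FN versus MN in the fit of the 2 groups alone without FN2 (added after the data were seen), 1 in FT versus MT in DESeq2, and 0 to 1 in FT versus MT when single libraries were left out. All genes called were 728 of 13156 in the first of these and 245 of 17316 in DESeq2. Without FT1, the left-out library that gave the 1, they were 755 of 13606. Members meeting the DEG criteria in FN versus MN numbered 1 with limma-voom, with 9 libraries (without FN2, FT2 and FT3), in the fit of the 2 groups without FN2 and with no RPKM minimum, 2 in the fit of the 2 groups, and 0 to 1 with single libraries left out. In FT versus FN the count was 0 with limma-voom, in the fit of the 2 groups with all libraries or without FN2 and FT2, and with 10 or 9 libraries, and 0 to 1 with single libraries left out. In FT versus MT it was 2 with DESeq2, with its size factors and with 10 libraries, 0 with 9 libraries, and 1 to 2 with single libraries left out. For the interaction it was 0 to 1 with single libraries left out. The tested genes that met the criteria varied too. In FN versus MN they were 510 of 13360 with limma-voom, and 425 of 12893 with the 2 groups alone (498 of 13156 without FN2). In FT versus FN they were 520 of 13835 with limma-voom, 102 of 13408 with 2 groups alone and 1358 of 13943 with 10 libraries. In FT versus MT they were 1352 of 17316 with DESeq2, 1149 of 13360 with its size factors and 1865 of 13462 with 10 libraries.

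Log2 fold changes of these members changed sign. With limma-voom, Tap1 was 0.036 and Tapbp 0.12 in FN versus MN, B2m -0.050 and Tap2 -0.15 in MT versus MN, B2m 0.27, H2-K1 0.14, H2-D1 0.18 and Tap2 -0.23 in FT versus FN, and B2m 0.32, Tap2 -0.085 and Psmb9 0.070 in the interaction. With 10 libraries, Tap1 was 0.062 and Tapbp 0.11 in FN versus MN, B2m 0.79, H2-K1 0.66, H2-D1 0.62 and Tap2 -0.14 in FT versus FN, and B2m 0.51, H2-K1 0.16, H2-D1 0.21, Tap2 -0.16 and Psmb9 0.13 in the interaction. With 9 libraries, Tap1 was 0.065 and Tapbp 0.11 in FN versus MN, H2-K1 0.11, Tap2 -0.16 and Psmb8 -0.0065 in FT versus FN, B2m -0.16 and H2-D1 -0.17 in FT versus MT, and Tap2 -0.19 and Psmb8 -0.26 in the interaction. In fits of 2 groups without FN2 and FT2, Tap1 was 0.064 and Tapbp 0.11 in FN versus MN, and B2m 0.83, H2-K1 0.70, H2-D1 0.67 and Tap2 -0.11 in FT versus FN. Without MT3, MT versus MN gave B2m -0.16, Tap2 -0.14 and Psmb8 -0.058. Without TMM, Tap2 was -0.084 in FT versus FN and -0.096 in the interaction, where it was -0.0040 without the filter.

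With single libraries left out, FN versus MN spanned -0.37 to 0.084 for Tap1, -0.11 to 0.54 for Tap2 and -0.28 to 0.13 for Tapbp. MT versus MN spanned -0.15 to 0.48 for B2m, -0.30 to 0.030 for Tap1, -0.14 to 0.17 for Tap2 and -0.058 to 0.42 for Psmb8. FT versus FN spanned -0.89 to 0.44 for B2m, -0.89 to 0.26 for H2-K1, -0.91 to 0.25 for H2-D1 and -0.36 to 0.28 for Tap2. FT versus MT spanned -0.34 to 0.86 for B2m, -0.59 to 0.55 for H2-K1, -0.49 to 0.52 for H2-D1 and -0.0017 to 0.35 for Tap2. The interaction spanned -1.17 to 0.16 for B2m, -0.39 to 0.25 for Tap2 and -0.35 to 0.11 for Psmb9.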
